A study of Mus musculus with 9 samples.

Results

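The genes described here are the mouse genes whose symbol starts with Ube2, the ubiquitin-conjugating (E2) enzymes and their close relatives. They were found by mapping the RefSeq record of each row to its gene symbol and keeping every symbol with that start. There were 35 such genes, on 39 records, of 19840 gene names in all. For 2 genes with several records, the one with the highest mean was kept. The name also took in Ube2cbp, which encodes a protein that binds an E2 and is not itself an E2. Ube2v1 and Ube2v2 encode E2-like proteins without the catalytic cysteine. Of the 35, 32 reached 1 RPKM (a read count scaled by transcript length and library depth) in at least 1 library. Ube2dnl2 and Ube2u had no value above the empty level in any library (0, or the exact 1 that stands for 0 in the 4 CD71/CD24a files), and Ube2ql1 never reached 1 RPKM.

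The libraries were RNA-seq of erythroid cells from fetal liver of C57BL/6 mouse embryos at E13.5 to E14.5, 9 in all and 1 library per condition. The 3 fresh libraries were BFU-E (early erythroid progenitors, gated as negative for lineage markers, positive for Kit and within the 10% lowest for CD71), CFU-E (later progenitors, within the 20% highest for CD71) and Ter119+ cells (erythroblasts, negative for Kit). The 6 cultured libraries were BFU-E grown in a serum-free medium that contained 2 U/mL erythropoietin, 40 ng/mL IGF-1 and 100 ng/mL stem cell factor, first for 4 h and then for another 4 h with an added agent. Cells sorted by low CD71 alone (CD71 sort) received 100 nM dexamethasone (Dex, a synthetic glucocorticoid) or water. Cells low in both CD71 and CD24a (CD71/CD24a sort) received Dex with 333 µM DMOG (which inhibits the hydroxylases that mark HIF for destruction), DMOG, Dex or water. The sorted cells were enriched populations and not pure ones, and the labels do not say how many embryos were pooled.

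Ubiquitin is passed along a chain of enzymes. An E1 activates it, an E2 carries it as a thioester, and an E3 brings the loaded E2 to the protein to be tagged. Related E2 enzymes do the same for the ubiquitin-like proteins SUMO, NEDD8 and ISG15. Maturing red cells discard most of their proteins, and UBE2O, which acts as E2 and E3 at once, is known in mouse reticulocytes for tagging ribosomal proteins and others that are cleared. UBE2H is known as the E2 of the CTLH ligase, also called the MAEA complex. UBE2L6 is the E2 of ISG15. These 3 made up the erythroblast list. The cell cycle list held UBE2C and UBE2S, which start and lengthen chains on the anaphase-promoting complex (APC/C), and UBE2T, the E2 of the Fanconi anaemia ligase FANCL.

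Several Ube2 genes have near copies in the genome, and the sources used here do not give how reads that match several genes were counted. The share of each gene's 32-base words that also occur in other transcripts was therefore measured, and 10% or more was called shared. By this measure 12 of 35 members shared sequence with pseudogenes. Among them were Ube2f (33.0%), Ube2q2 (24.7%), Ube2e1 (21.0%), Ube2v2 (20.8%), Ube2v1 (18.4%), Ube2l3 (16.9%, with 12 pseudogenes), Ube2d2a (16.9%), Ube2j2 (16.7%), Ube2c (14.1%), Ube2n (11.2%) and Ube2h (10.2%). With genes of any kind, 16 members shared 10% or more. Ube2v1 shared 81.7% with the coding gene Gm20431, Ube2h shared 51.8% with the lincRNA Gm26526, and Ube2e1 shared 67.3% in all, mostly with Nkiras1. Ube2l6 shared 20.0% in all, with 12.5% of its words in the noncoding transcript Gm17167 and none in a pseudogene. Ube2c shared 19.7% in all. The values of these genes are uncertain to the extent that reads were split. Ube2o, Ube2s and Ube2t shared 0%.

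RefSeq promoters (assembly GRCm38.p6, from 250 bases before to 50 after the transcript start) were given for 28 members. They are shown for 2 of the 3 cell cycle members and for Ube2l6, the member with the highest level in Ter119+ cells, 5′ to 3′ on the gene's strand. Capitals mark the CCAAT box on either strand (CCAAT or ATTGG) in Ube2c and Ube2t, and in Ube2c also TTTGAA, a motif of cell cycle genes, found on the other strand as TTCAAA. In Ube2l6 they mark the CACCC box, which factors of the KLF family can bind, found on the other strand as GGGTG.
Ube2c (chr2:164769679-164769978, plus strand): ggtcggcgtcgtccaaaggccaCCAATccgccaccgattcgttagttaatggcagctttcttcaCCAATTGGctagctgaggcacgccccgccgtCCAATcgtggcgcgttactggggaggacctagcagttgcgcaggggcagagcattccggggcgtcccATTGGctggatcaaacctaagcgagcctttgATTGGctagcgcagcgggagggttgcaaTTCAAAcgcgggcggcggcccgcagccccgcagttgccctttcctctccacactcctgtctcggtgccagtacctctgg
Ube2t (chr1:134962315-134962614, plus strand): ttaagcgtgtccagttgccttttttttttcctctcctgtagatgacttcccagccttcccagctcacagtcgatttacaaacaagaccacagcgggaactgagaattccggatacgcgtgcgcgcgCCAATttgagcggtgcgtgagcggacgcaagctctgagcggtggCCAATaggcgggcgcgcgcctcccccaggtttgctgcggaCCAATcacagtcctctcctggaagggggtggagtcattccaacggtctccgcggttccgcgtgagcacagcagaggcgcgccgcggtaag
Ube2l6 (chr2:84798578-84798877, plus strand): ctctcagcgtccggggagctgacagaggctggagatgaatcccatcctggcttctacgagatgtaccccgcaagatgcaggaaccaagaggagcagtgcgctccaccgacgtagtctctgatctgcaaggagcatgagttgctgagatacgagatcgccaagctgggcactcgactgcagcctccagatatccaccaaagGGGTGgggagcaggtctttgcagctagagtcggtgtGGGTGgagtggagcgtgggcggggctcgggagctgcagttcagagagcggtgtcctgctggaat
The Ube2c window held 6 CCAAT matches, 2 of them overlapping on opposite strands, and 1 TTTGAA match. The Ube2t window held 3 CCAAT matches, and the Ube2s window held 0 of both motifs. Of 32851 windows of this kind in RefSeq, 37.4% held at least 1 CCAAT, 0.0791% held 6 or more, and 17.9% held TTTGAA. The Ube2l6 window held 2 CACCC matches, and 25.7% of all windows held 2 or more. The GATA motif AGATAA was in 1 Ube2h window and in 11.2% of all windows. A match is a run of letters and was not tested as a site.

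The read depth that the spacing of low RPKM values implies was 17.4 to 23.7 M reads in the fresh libraries and 11.85 to 52.75 M in the cultures, and 3 reads on a 1 kb transcript were worth 0.0569 to 0.253 RPKM. Each library was divided by 1 factor before libraries were compared (normalised RPKM). That factor was 0.419 for Ter119+ cells and 1.02 to 1.18 for the other 8 libraries. The labels matched their defining markers. The 6 erythroblast markers, among them Hba-a1, Hbb-bt, Alas2 and Slc4a1, summed to 42.1, 255 and 207564 normalised RPKM in BFU-E, CFU-E and Ter119+ cells, while Kit, Gata2, Cd34 and Myb summed to 491, 150 and 7.0. Markers of other cells were also present. The 10 neutrophil markers summed to 99.4, 5.02 and 212 normalised RPKM in BFU-E, CFU-E and Ter119+ cells, and the 10 macrophage markers found of 11 listed summed to 7.75, 1.81 and 50.1. Markers of megakaryocytes summed to 82.9, 11.8 and 87.3 and lymphoid markers to 9.15, 0.803 and 10.2, with Cd79a and Cd3e at 0 in Ter119+ cells. Hepatocyte markers summed to 28.6, 10.3 and 23.3, and endothelial markers to 37.7, 23.3 and 3.17. All 10 neutrophil markers reached 1 normalised RPKM in Ter119+ cells, and 8 of them were below 1 in CFU-E. So did 8 macrophage markers, all 8 of them below 1 in CFU-E. Their part in the Ube2 levels was not tested. The CD71 sort water library stood apart: 60 of 9535 genes were at least 2-fold above all 5 other cultures there, against 0 to 10 genes in each other culture.

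Fresh CFU-E were first set against fresh BFU-E, the step between the progenitor stages. Most Ube2 genes were at similar levels in both. Ube2l6 and Ube2j1 were at least 2-fold higher in CFU-E and Ube2e2 at least 2-fold lower. Ube2l6 was at 15.2 normalised RPKM in CFU-E, against 6.56 in BFU-E, a ratio of 2.32 (95% interval of counting error 1.98 to 2.74). Ube2j1, an E2 of the endoplasmic reticulum that serves the removal of misfolded proteins, was at 14.1 in CFU-E, against 6.39 in BFU-E (ratio 2.20, 1.97 to 2.46). Ube2e2 was at 0.506 in CFU-E, against 2.19 in BFU-E (ratio 0.233, 0.133 to 0.389), from 20 and 65 reads. With 1 library per stage there is no replicate error and no test, and the rule was a difference of at least 1 in log2(normalised RPKM + 1).

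Of 31 members with 1 normalised RPKM or more in either stage, 2 were higher and 1 lower by that rule. Over all 9947 genes compared, 3.32% were higher and 12.3% lower. The median difference was 0.13 on the log2 scale over the members and -0.08 over all genes. Just short of the rule lay Ube2d1, a UBCH5-type E2 that works with many ligases, with 3.30 normalised RPKM in CFU-E and 7.35 in BFU-E (log2 difference -0.96). Apart from Ube2l6, the erythroblast and cell cycle members did not reach 2-fold. Ube2o was at 16.7 in CFU-E and 15.8 in BFU-E, and Ube2h at 1.19 in CFU-E and 1.26 in BFU-E. Ube2c was at 97.4 in CFU-E and 94.2 in BFU-E, Ube2s at 12.2 in CFU-E and 10.0 in BFU-E, and Ube2t at 13.3 in CFU-E and 12.6 in BFU-E. The 12 mitosis genes listed beside them had 0 past the rule in either direction.

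**Figure D1:**
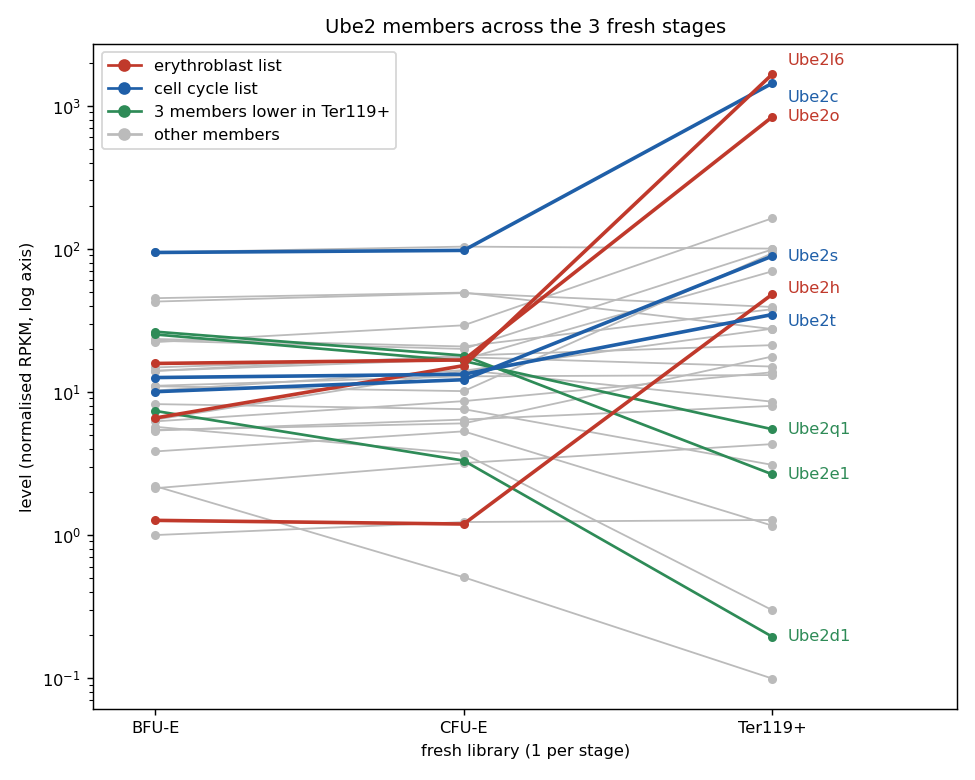
Levels of the 31 Ube2 genes at 1 normalised RPKM or more in a fresh library, across the 3 fresh libraries (log axis, 1 library per stage, no error bars). Ube2l6, Ube2o and Ube2c end at 1660, 835 and 1435 normalised RPKM in Ter119+ cells, while Ube2d1 ends at 0.194.

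Ter119+ cells were then set against CFU-E, the step to erythroblasts. A small number of Ube2 genes stood far above their CFU-E level. Ube2l6, Ube2c and Ube2o reached 1660, 1435 and 835 normalised RPKM in Ter119+ cells, and the next, Ube2e3, was at 163. Of 30 members compared, 11 were at least 2-fold higher and 6 at least 2-fold lower in Ter119+ cells. Over all 9530 genes compared, 22.6% were higher and 28.8% lower, so changes of this size were common at this step. None of the 30 members reached 1 normalised RPKM only in Ter119+ cells.

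All 3 erythroblast members were higher. Ube2l6 was at 6.56, 15.2 and 1660 normalised RPKM in BFU-E, CFU-E and Ter119+ cells, a ratio of 109 between Ter119+ cells and CFU-E (95% interval of counting error 100 to 118). Ube2o was at 15.8, 16.7 and 835 normalised RPKM over the same stages (log2 difference of Ter119+ cells and CFU-E 5.56, ratio between 47.9 and 52.2 by counting error). It was level between the progenitors and far higher in erythroblasts. Ube2h was at 1.26, 1.19 and 48.1 normalised RPKM (ratio 40.3, 33.9 to 48.1). Ube2h was among the lowest members in both progenitors, and 52.4% of its words are shared with other transcripts.

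The 3 cell cycle members were higher too. Ube2c was at 94.2, 97.4 and 1435 normalised RPKM in BFU-E, CFU-E and Ter119+ cells (ratio of Ter119+ cells to CFU-E 14.7, 14.1 to 15.4). Ube2c was already among the highest members in the progenitors. Ube2s was at 10.0, 12.2 and 88.9 (ratio 7.31, 6.47 to 8.27) and Ube2t at 12.6, 13.3 and 34.7 (ratio 2.61, 2.23 to 3.05). On the log2 scale the median difference was 5.56 over the erythroblast members and 2.77 over the cell cycle members, beside 0.31 over all members (-0.64 with RPKM as deposited) and -0.21 over all genes. The erythroblast list was made of enzymes chosen for rising in erythroblasts, so its higher median is a description fixed by that choice. In each list 3 of 3 members passed the rule.

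The other 5 members that were higher had varied roles. Ube2b, a homologue of yeast RAD6, was at 93.2 normalised RPKM in Ter119+ cells, against 10.1 in CFU-E (log2 difference 3.08). Its close relative Ube2a was at 13.7 in Ter119+ cells, against 8.61 in CFU-E (0.61), under the rule. Ube2e3 was at 163 in Ter119+ cells, against 29.2 in CFU-E (2.45). Its relative Ube2e1 was at 2.65 in Ter119+ cells, against 17.9 in CFU-E, and so lower. Ube2e2 was at 0.0991 in Ter119+ cells and 0.506 in CFU-E, too low in both to be compared. Ube2r2, a relative of CDC34 that serves the SCF ligases, was at 98.9 in Ter119+ cells, against 19.9 in CFU-E (2.25). Ube2f, an E2 of NEDD8, was at 69.6 in Ter119+ cells, against 16.9 in CFU-E (1.98), while Ube2m, the other E2 of NEDD8, was at 100 in Ter119+ cells and 104 in CFU-E (-0.05). Ube2v1, the inactive partner of Ube2n, was at 17.7 in Ter119+ cells, against 6.02 in CFU-E (1.41), with 92.1% of its words shared.

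Those that were lower stood at low levels in erythroblasts. Ube2e1 had a log2 difference of -2.37, with 67.3% of its words shared. Ube2d1 was at 0.194 normalised RPKM in Ter119+ cells, from 2 reads, against 3.30 in CFU-E (ratio 0.0578, 0.00692 to 0.213). The other UBCH5-type members were not past the rule, Ube2d3 being at 15.0 in Ter119+ cells and 17.5 in CFU-E. Ube2cbp was at 0.298 in Ter119+ cells, from 4 reads, against 3.70 in CFU-E. Ube2q1 was at 5.48 in Ter119+ cells, against 16.4 in CFU-E (-1.43), and Ube2q2 at 1.16 in Ter119+ cells, against 5.30 in CFU-E (-1.54). Ube2g1, an E2 used by cullin ligases, was at 3.09 in Ter119+ cells, against 7.57 in CFU-E (-1.07).

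How these values read depends on the factor of the Ter119+ library. With RPKM as deposited the median difference was -1.30 over all genes and -0.64 over the members, against -0.21 and 0.31 with the factor. The counts became 7 members higher and 13 lower, while over all 9318 genes compared that way 8.46% were higher and 60.3% lower. Of all genes past the rule, 12.3% were higher, against 44.0% with the factor. Ube2l6, Ube2o, Ube2h, Ube2c, Ube2b, Ube2s and Ube2e3 were at least 2-fold higher both ways, and all 6 lower members were lower both ways. Ube2f, Ube2r2, Ube2t and Ube2v1 were past the rule only with the factor, Ube2t having a log2 difference of 0.01 without it. The libraries hold no measure of RNA per cell, so a transcript's share of the RNA and its amount per cell cannot be told apart.

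**Figure D2:**
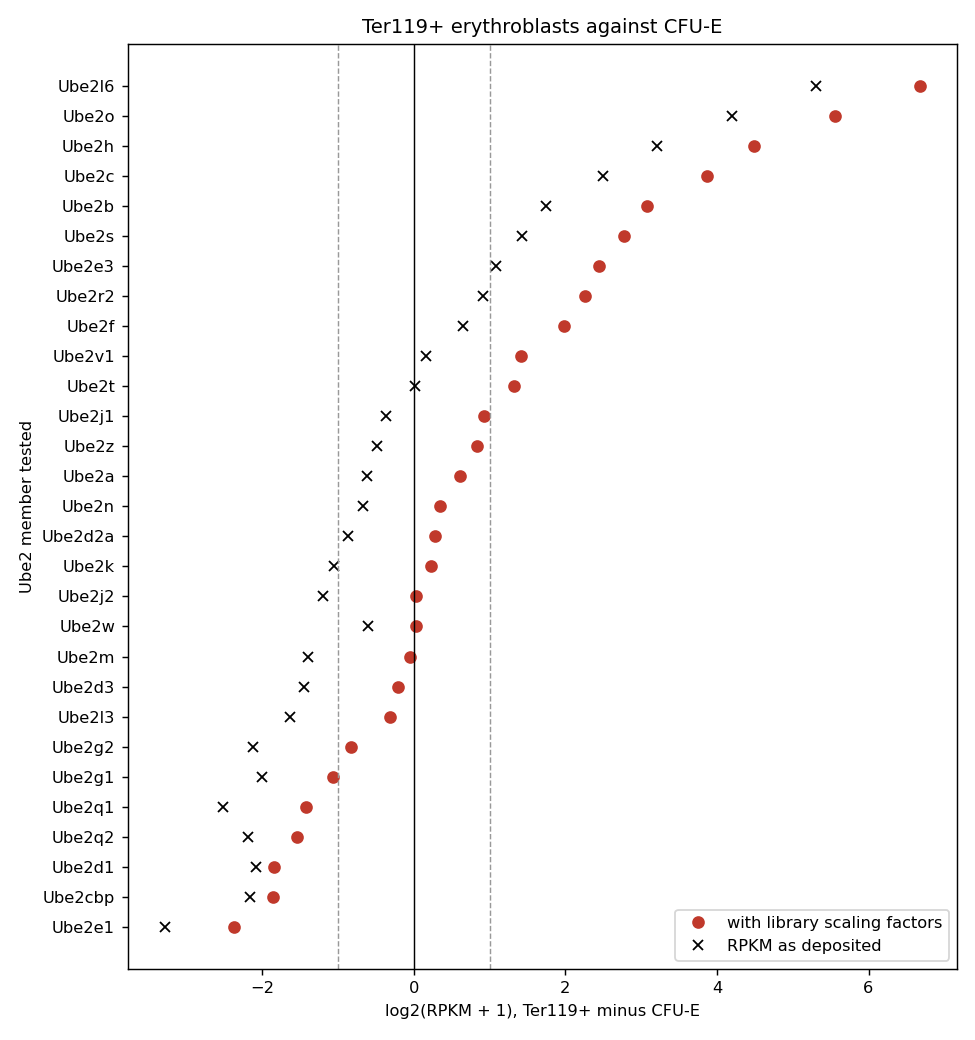
Difference of Ube2 members at 1 normalised RPKM or more in either stage, Ter119+ cells minus CFU-E, on the log2(RPKM + 1) scale, with library factors (dots) and as deposited (crosses); dashed lines mark 2-fold. The top 7 members lie above the upper line both ways, the bottom 6 lie below the lower line both ways, and 4 members pass the upper line only with factors.

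Genes that act before and after these enzymes were taken from lists by role. Of 8 E1 genes, 1 was at least 2-fold higher and 2 (Uba2 and Uba6) lower in Ter119+ cells than in CFU-E, against 1 and 5 as deposited. The higher one was Uba7, the E1 that loads ISG15 onto UBE2L6, with 8.02, 6.74 and 363 normalised RPKM in BFU-E, CFU-E and Ter119+ cells (log2 difference of Ter119+ cells and CFU-E 5.55, and 4.20 as deposited). Isg15 itself was at 0.675, 0.153 and 35.1 over the 3 stages, so that in erythroblasts the modifier's transcript was far below those of its E1 and E2. Of 11 interferon-induced genes compared of 18 listed, 6 were higher and 1 lower, a median of 1.38, against 4 and 1 of 10 as deposited (median 0.17). Of the 6, Isg15, Oasl2 and Rsad2 reached 1 normalised RPKM only in Ter119+ cells and so could enter only by differing. The 6 higher genes included Uba7, Isg15, Irf7 and Rsad2. Irf7 was at 24.9 in Ter119+ cells and 1.84 in CFU-E, and Rsad2 at 19.2 in Ter119+ cells and 0.0510 in CFU-E. The list did not move as a whole, since Bst2 was at 3.02 in Ter119+ cells and 22.3 in CFU-E. Ifit2 was at 0.758 in Ter119+ cells and 1.49 in CFU-E, under the rule. Ifit3, Mx1 and Mx2 were at 0 in Ter119+ cells and at 0.0845 or less in the progenitors, too low to be compared.

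Among 14 APC/C genes, 3 were higher and 1 lower in Ter119+ cells (median 0.14), against 1 and 9 as deposited (median -1.09). Fzr1, the coactivator that keeps the complex active after mitosis and in G1, was at 79.6, 58.3 and 1262 normalised RPKM in BFU-E, CFU-E and Ter119+ cells (log2 difference of Ter119+ cells and CFU-E 4.41, and 3.04 as deposited). Cdc20, its coactivator in mitosis, was at 159 in Ter119+ cells and 116 in CFU-E (0.45). Of 12 mitosis genes, 11 were higher, a median of 1.91, with Mki67 at 1803 in Ter119+ cells and 118 in CFU-E and Ccnb2 at 356 in Ter119+ cells and 72.9 in CFU-E. As deposited, 3 of the 12 were higher and 0 lower. The difference of Ube2c was 3.87 on the log2 scale. Of the 12 mitosis genes only Mki67 lay above that, at 3.93, and the next, Cenpf, was at 2.82.

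Of 9 genes of the CTLH ligase, the partner of UBE2H, 4 were higher and 1 lower (median 0.18), against 2 and 5 as deposited (median -1.01). As deposited, 60.3% of all genes were lower. Wdr26 was at 14.8, 23.7 and 358 normalised RPKM in BFU-E, CFU-E and Ter119+ cells (log2 difference of Ter119+ cells and CFU-E 3.86, and 2.50 as deposited). Gid8 was at 223 in Ter119+ cells and 44.3 in CFU-E. The ring subunit genes differed, Rmnd5a being at 51.1 in Ter119+ cells and 9.17 in CFU-E, Rmnd5b at 8.25 in Ter119+ cells and 30.0 in CFU-E, and Maea at 54.7 in Ter119+ cells and 73.0 in CFU-E.

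Of 10 genes of ubiquitin and its relatives, 3 (among them Isg15 and Ubb) were higher and 2 (Sumo3 and Rps27a) lower (median -0.04), against 1 and 6 as deposited. Ubb was at 453 in Ter119+ cells and 98.5 in CFU-E, with 58.2% of its words shared, and Sumo3 at 18.6 in Ter119+ cells and 65.1 in CFU-E. Of 3 Fanconi genes, Fancl was higher, at 26.9 in Ter119+ cells and 8.66 in CFU-E, and 0 were past the rule as deposited. Of 5 ligase partners of the RAD6 type and of 5 E2 genes without the Ube2 name, 0 were past the rule, against 1 of 5 and 3 of 4 lower as deposited. The 14 genes of the proteasome core did not follow, with 0 higher and 1 lower (median -0.49), and 12 lower as deposited.

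**Figure D3:**
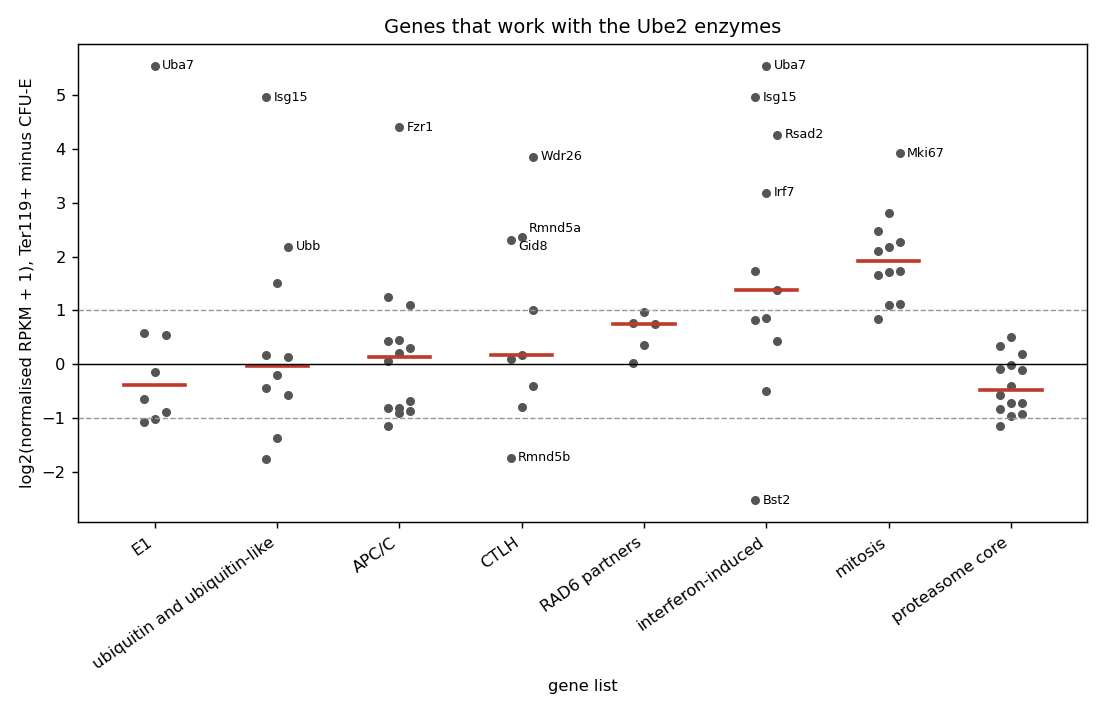
Differences of listed genes, Ter119+ cells minus CFU-E, on the log2(normalised RPKM + 1) scale; each dot is a gene at 1 normalised RPKM or more in either stage, red bars are list medians and dashed lines mark 2-fold. Uba7 (5.55), Fzr1 (4.41) and Wdr26 (3.86) stand far above the rest of their lists, whose medians are -0.39, 0.14 and 0.18 (all 3 medians lie below -1 with RPKM as deposited).

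Shares within a library do not depend on its factor. Ube2 transcripts summed to 604, 664 and 2043 RPKM as deposited in BFU-E, CFU-E and Ter119+ cells, which was 0.189%, 0.208% and 0.511% of all RPKM. Ube2c, Ube2l6 and Ube2o together held 20.4%, 21.1% and 80.6% of that sum. In the progenitors the largest share was that of Ube2m, the NEDD8 E2 that serves most cullins, with 16.5% in BFU-E and 16.9% in CFU-E. Ube2c was close to it, with 16.5% in BFU-E and 15.9% in CFU-E. In Ter119+ cells Ube2l6 held 34.0%, Ube2c 29.4%, Ube2o 17.1% and Ube2m 2.06%. The largest share in each of the 6 cultures was again that of Ube2m, at 11.2% to 17.4%. In the CD71 sort water culture Ube2s was level with it, both at 13.5%. In the CD71 sort Dex culture Ube2c held 16.7%, against 17.4% for Ube2m.

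**Figure D4:**
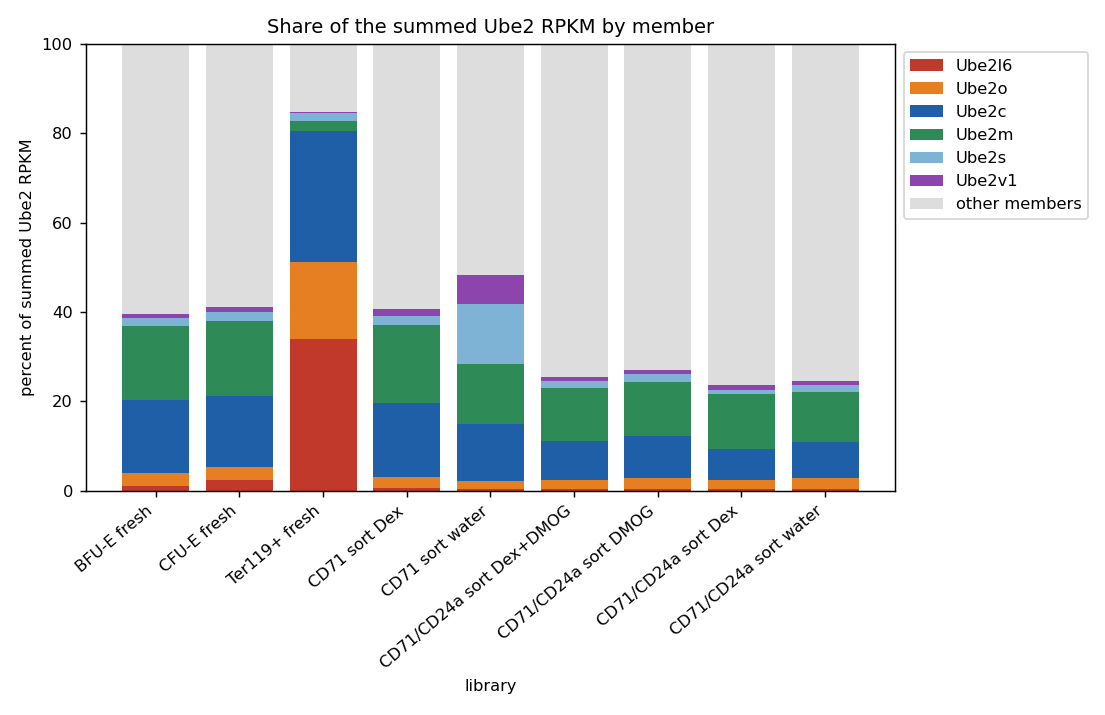
Percent of the summed Ube2 RPKM held by 6 named members and by all others, in each of the 9 libraries. Ube2l6, Ube2o and Ube2c fill 80.6% of the Ter119+ bar and 9.26% to 21.1% of the others, and Ube2s takes 13.5% in the CD71 sort water library, against 1.01% to 2.03% elsewhere.

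In the cultured BFU-E the question was whether Dex, DMOG or both changed the enzymes within 4 h. No Ube2 gene passed an adjusted p of 0.05 for any of the 3 terms in limma, of 32 members tested. Over all 9535 genes, 2.02% passed for Dex, 0.021% for DMOG and 0% for the interaction. At an unadjusted p under 0.05 there were 3 members for Dex, 2 for DMOG and 1 for the interaction. The median Dex difference was -0.07 on the log2 scale over the members and -0.02 over all genes. For Dex, 30 of 32 members had a 95% interval within 2-fold either way.

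The member nearest to a call for Dex was Ube2t. It was at 8.75, 9.06 and 9.07 normalised RPKM with Dex in the CD71 sort, the CD71/CD24a sort and the CD71/CD24a sort with DMOG, against 11.3, 11.7 and 11.4 in the paired cultures without Dex. The 3 Dex cultures lay below the 3 others without overlap. The fitted log2 difference was -0.32 (SE 0.07, 95% interval -0.49 to -0.15, limma adjusted p = 0.0950, lower in 3 of 3 pairs). Of the 3 pairs, 2 came from the CD71/CD24a sort. Over the alternative settings the adjusted p ran between 0.0185 and 1.0.

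Ube2s was at 13.4, 6.49 and 9.40 normalised RPKM with Dex in the same order, against 113, 10.3 and 12.5 without Dex. It was lower with Dex in 3 of 3 pairs, but 1 library, the CD71 sort water culture, was far above the other 5. The fitted difference was -1.32 (SE 0.48, limma adjusted p = 0.255). Without the CD71 sort pair the difference of Ube2s was -0.49 (limma adjusted p = 0.00196) in a fit of the 4 CD71/CD24a libraries. Their arms were divided from the same sorted cells, so the p-values of that fit do not cover the spread between sorts. That fit, with 1 residual degree of freedom, called 4 of 32 members. Ube2s, Ube2t (-0.32, limma adjusted p = 0.0185) and Ube2o (-0.27, limma adjusted p = 0.0337) were lower with Dex. Ube2r2 was higher (0.30, limma adjusted p = 0.0141). Of all 9509 genes in that fit 1254 were called, 521 higher and 733 lower, so calls were common there. Without the CD71/CD24a pair with DMOG, 1 member was called, Ube2s (-1.79, limma adjusted p = 0.0149), and 267 of 9527 genes in all.

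In the CD71 sort water library, Ube2v1 was also high, at 54.1 normalised RPKM against 5.25 to 9.46 in the other 5 cultures. Of the 60 genes that stood apart in that library, 54 had a sharing value and 88.9% of those shared 10% or more of their words, against 24.7% of all genes. Ube2v1 was among the members that share, and Ube2s shared 0%. The part of sequence sharing in these levels was not tested. In a fit with a term for it, the Dex effect differed between the sorts for 4 of the 32 members (among them Ube2s, Ube2v1 and Ube2h), against 6.03% of all genes.

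None of the 3 erythroblast members was called for Dex, and 0 had an unadjusted p under 0.05. Ube2o was at 16.8, 12.5 and 13.9 normalised RPKM with Dex, against 14.6, 16.2 and 16.0 without it (log2 difference -0.12, limma adjusted p = 0.641). The cultures with and without Dex overlapped. Ube2l6 was at 3.36, 2.40 and 2.87 with Dex, against 3.74, 2.73 and 2.79 without it (-0.08, adjusted p = 0.711). Ube2h was at 0.768, 1.66 and 1.32 with Dex, against 1.68, 1.34 and 1.18 without it (-0.11, adjusted p = 0.778). The 6 erythroblast markers summed to 485, 63.4 and 51.8 normalised RPKM with Dex, against 1123, 142 and 188 without it. The largest part of each sum was Hbb-bt, at 371, 43.8 and 37.5 with Dex, against 822, 119 and 170 without it. Hbb-bt shared 59.4% of its words. The fitted log2 differences of the 6 markers were all below 0, between -1.57 and -0.03. Not every marker was lower in every pair. Alas2 was at 7.67, 4.61 and 4.41 with Dex, against 5.57, 6.11 and 4.99 without it, and so higher in the CD71 sort pair only. Of the 6 markers, 1 was called lower for Dex and 0 higher. Their part in the Ube2 levels was not tested.

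DMOG made no call either. Ube2c was at 57.8 normalised RPKM with Dex and DMOG and 64.1 with DMOG, against 44.7 with Dex and 53.9 with water. Within the CD71/CD24a sort, both DMOG cultures lay above both cultures without DMOG. The CD71 sort cultures, which had no DMOG, were higher, at 111 with Dex and 106 with water. The log2 difference was 0.30 (SE 0.10, limma adjusted p = 0.999, higher in 2 of 2 pairs). Without the CD71 sort pair, which leaves the arms of 1 sort, Ube2c was the 1 member called (0.30, limma adjusted p = 0.0422). Of all 9509 genes in that fit 139 were called for DMOG, against 2 of 9535 in the fit of all 6 cultures. The DMOG differences of all 32 members lay between -0.15 and 0.36.

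Of the listed genes around these enzymes, 2 were called for Dex. They were 1 of 9 tested genes of ubiquitin and its relatives (Ubb) and 1 of 6 tested interferon-induced genes (Irf9). No other list held a call. Among those were 8 E1 genes, 5 ligase partners of the RAD6 type, 5 E2 genes without the Ube2 name and 3 Fanconi genes. Over all 9535 genes, 2.02% were called. Ubb was at 205, 95.7 and 90.6 normalised RPKM with Dex in the CD71 sort, the CD71/CD24a sort and the CD71/CD24a sort with DMOG, against 415, 125 and 149 without Dex, lower in 3 of 3 pairs (-0.71, SE 0.12, limma adjusted p = 0.0483). Its highest value was in the CD71 sort water library, and without that pair the difference was -0.55 (adjusted p = 0.000524). The adjusted p of Ubb was 0.0562 with upper-quartile scaling, 0.0529 with pseudocount 0.1 and 0.228 with no filter on low values. Irf9, an interferon-induced factor, was higher (0.44, SE 0.07, limma adjusted p = 0.0427). The call of Irf9 was lost without either CD71/CD24a pair (adjusted p = 0.227 without that lacking DMOG and 0.114 without that with DMOG). With no filter on low values the adjusted p of Irf9 was 0.184. With no replicate block neither Irf9 nor Ubb was called. None of the 14 APC/C, 9 CTLH, 12 mitosis or 14 proteasome core genes tested was called for Dex by limma, with 1, 0, 1 and 3 of them at an unadjusted p under 0.05.

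The water cultures were last set beside fresh BFU-E, as a description only, since culture and library preparation cannot be told apart. Of 32 members, 2 were at least 2-fold higher than in fresh BFU-E in both water cultures (Ube2d3 and Ube2q2) and 0 were lower in both, against 4.38% and 6.5% of all 10174 genes compared.

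**Figure D5:**
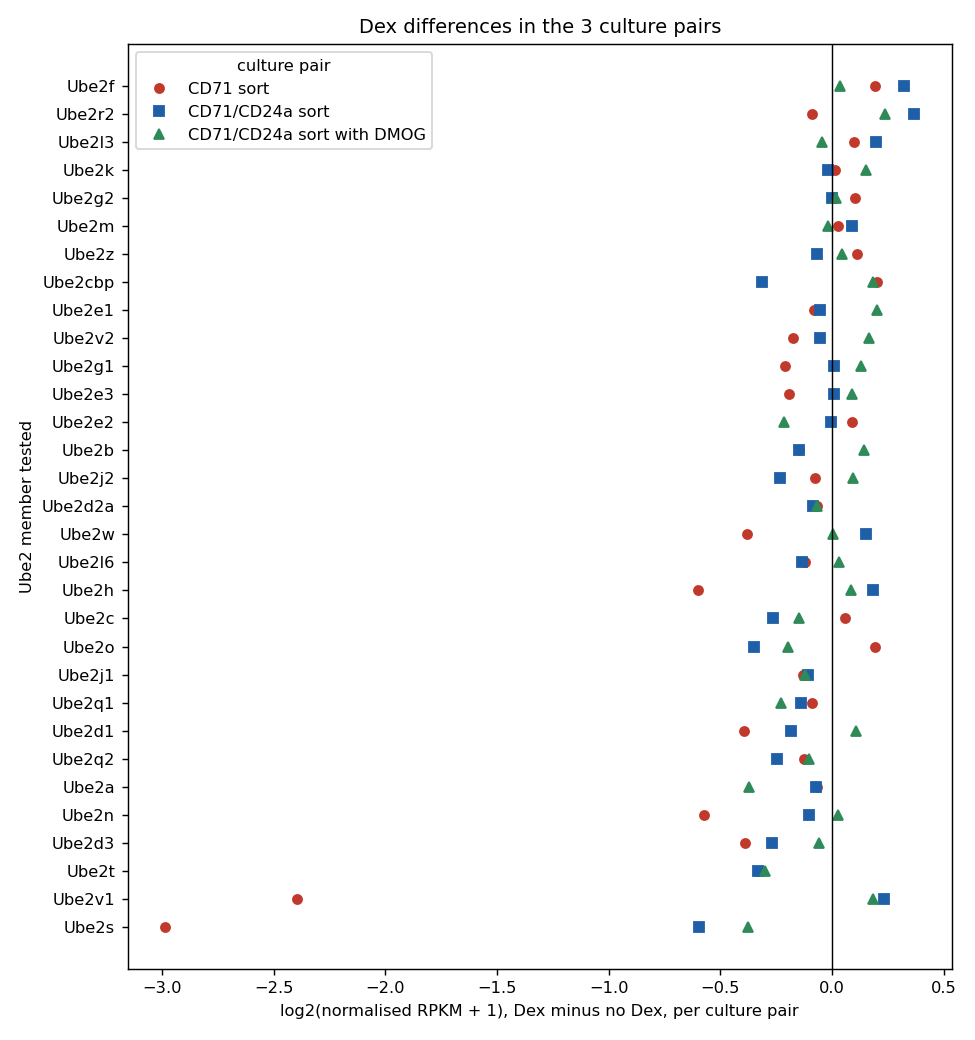
Difference of tested Ube2 members, Dex minus no Dex, on the log2(normalised RPKM + 1) scale, in each of the 3 culture pairs. Most points lie within 0.5 of 0, Ube2t lies between -0.33 and -0.30 in all 3 pairs, and the CD71 sort points of Ube2s (-2.99) and Ube2v1 (-2.40) stand apart.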

How the data were processed

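RNA-seq of 9 libraries was analysed, 1 per condition, so groups hold no replicates and p-values measure the spread between culture pairs, which may be technical. Of the 3 pairs, 2 came from the CD71/CD24a sort. Fits without the CD71 sort pair hold that sort alone. The values are RPKM computed and deposited by the authors for 23041 RefSeq records per file. The submitters' processing notes name the build mm9. Aligner, read counter and strand setting are not given in the sources used here. An exact 1 in the 4 CD71/CD24a files (5954 to 7412 values, with no 0 in those files) was read as 0.

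Symbols came from RefSeq for 22393 records and from GENCODE M21 for 118; 530 records had none. The members, the gene lists and the tests were chosen with earlier results of these data known. Depth was recovered from RPKM steps: 66.9% to 69.9% of low values (up to 10 reads) were whole within 0.1 reads, against 13.2% to 17.2% at other trial depths. Transcript lengths came from another build. The 95% intervals are exact (Clopper-Pearson) and cover counting error only. Library factors were median ratios to the geometric mean over 6888 genes at 1 RPKM or more in all libraries.

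Differences are on log2(normalised RPKM + 1), which understates changes of low genes. Fresh stages were compared by a 2-fold rule among genes at 1 or more in either stage. Cultures were tested with limma 3.58.1 in R 4.3.3 (trend) on the 9535 genes that averaged 1 or more, with Benjamini-Hochberg adjustment, the culture pair as a block (per the labels' protocols, arms were divided from the same sorted cells) and Dex, leaving 2 residual degrees of freedom; the interaction left 1. Dex and DMOG comparisons share libraries. On simulated data the fit recovered 73.0% of 196 genes changed by 1 on the log2 scale among 9477, with 7 false calls. Ube2 members were named by rule, in full where listed or past a threshold; values of some genes that enter the counts are not reported here. Alternatives were other scalings, pseudocount 0.1, no low-value filter, exact 1 kept, records summed, each pair left out and no block.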

Additional observations from a re-analysis of the deposited data

Results flagged for a closer look

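The Dex effect differed between the sorts for 4 of 32 members in a fit with an added term, chosen after seeing that the CD71 sort water library stood apart (limma, 1 residual degree of freedom). Over all 9535 genes 6.03% passed this test. The Dex effect in the CD71 sort minus that in the CD71/CD24a sort was -2.60 on the log2 scale for Ube2v1 (SE 0.14, adjusted p = 3.92e-07), -2.50 for Ube2s (SE 0.14, adjusted p = 5.89e-07) and -0.74 for Ube2h (SE 0.18, adjusted p = 0.0384). Each rests on 1 CD71 sort pair, and on its water library, so sort and library cannot be told apart. In that pair Ube2h was at 0.768 normalised RPKM with Dex and 1.68 with water, near the 1 that is added before the log2 is taken.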

How the results depend on the processing

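Ter119+ calls moved with scaling: without factors 7 members were higher and 13 lower, against 11 and 6 with them, while upper-quartile scaling gave 12 and 5. With pseudocount 0.1, 2 members instead of 1 were lower in CFU-E than in BFU-E. The count of members called for Dex ran between 0 and 4 when 1 culture pair was left out (4 without the CD71 sort pair, 1 without the CD71/CD24a pair with DMOG), and that for DMOG was 1 without the CD71 sort pair. Over all genes, those fits called 1254 of 9509 and 267 of 9527 for Dex, and 139 of 9509 for DMOG. The Dex difference of Ube2h ran between -0.26 and 0.13 over the left-out pairs, the positive value being that without the CD71 sort pair. The libraries carry no replicate numbers, and the pairing comes from the protocol: with no replicate block, 0 members and 3 genes in all were called for Dex, against 0 members and 193 genes with it. With no filter on low values 21 genes were called for Dex. The cause of these shifts was not tested. Depth limits members at a few reads, such as Ube2d1, Ube2cbp and Ube2w in Ter119+ cells.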

Other observations

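Ube2d3 is a UBCH5-type E2 that works with many ligases, and it shared 21.4% of its words with other genes. It was at 40.0 normalised RPKM in the CD71 sort water culture and 64.2 in the CD71/CD24a sort water culture, against 14.8 in fresh BFU-E. Ube2q2 was at 9.0 and 10.1 in those cultures, against 3.83 in fresh BFU-E, with 24.7% of its words in a pseudogene. Ube2l6 lay below its fresh level in both, at 3.74 and 2.73 normalised RPKM in the water cultures, against 6.56 in fresh BFU-E. Ube2c differed between the sorts, at 106 normalised RPKM in the CD71 sort water culture and 53.9 in the CD71/CD24a sort water culture, with no test of that difference.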
